A study of Mus musculus with 2 samples.

Results

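The 9 genes described here encode enzymes that make the building blocks of DNA and the folate units this needs: Rrm1 and Rrm2 (ribonucleotide reductase), Tyms, Dut and Tk1 (thymidylate supply), Paics and Impdh2 (purines), and Shmt2 and Mthfd1 (one-carbon folate). They were chosen by name, and all 9 were found among the 43346 Ensembl mouse genes of the deposited tables. The tissue was liver of B6NCrl mouse embryos, labelled healthy, at embryonic day 11.5, taken as pools of male and female embryos, and the label of replicate 1 names 109 embryos. There were 2 biological replicates with 1 library each, made by a SmartSeq protocol from 1 cell-equivalent of RNA with spike-in RNAs. Both are labelled total RNA-seq. No treatment, genotype or time was varied, so the values are levels in 1 tissue, and the difference between the libraries is the only measure of their spread.

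A dividing cell must supply deoxynucleotides in balance. Ribonucleotide reductase turns ribonucleotides into deoxyribonucleotides, thymidylate synthase methylates dUMP to dTMP with a carbon carried on folate, and the same folate pool gives carbons to the purine ring. At this stage the liver is a main site of red blood cell formation, and its erythroid precursors divide quickly. In many cell types the mRNAs of Rrm2, Tyms and Tk1 are highest around S phase.

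The libraries were alike in size, with total expected counts of 33289699 in replicate 1 and 32607453 in replicate 2. Spike-ins took 5.83% of TPM (a relative level corrected for transcript length) in replicate 1 and 7.68% in replicate 2. Liver cells were represented: all 11 erythroid markers and 7 of 8 hepatoblast markers were detected, at 1 TPM or more, both in replicate 1 and in replicate 2, led by Hba-a2 and Hbb-y among the first and Afp and Apoa2 among the second. Cardiac and mesenchymal markers differed between the libraries. The 6 cardiac markers summed to 50.2 TPM in replicate 1 and 235 TPM in replicate 2, with Myl7 at 0 in replicate 1 and 93.5 TPM in replicate 2 and Nppa at 0 in both. Actc1 went the other way, at 43.5 TPM in replicate 1 and 30.3 TPM in replicate 2, and made up most of the sum of replicate 1. Hnf4a, the eighth hepatoblast marker, had 34.8 TPM in replicate 1 and was listed at 0 in replicate 2. The 5 mesenchymal markers summed to 177 TPM in replicate 1 and 424 TPM in replicate 2, where Pdgfrb went the other way, at 11 TPM in replicate 1 and 0.01 TPM in replicate 2. The part of these cells in the differences given below was not tested. In RNA pooled over cells, fewer cells that use a gene and less of its RNA per cell cannot be told apart. With 1 cell-equivalent per library, loss of molecules in library making cannot be told apart from either.

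Every one of the 9 genes was detected in both libraries. Of all Ensembl genes 15% were detected in both, and of the protein-coding ones 27.3%. The members were named with such results known, so this is a description. Their lowest level was that of Mthfd1 in both libraries, at 81.5 TPM in replicate 1 and 61.4 TPM in replicate 2. The highest was Tyms in replicate 1, at 356 TPM, and Rrm2 in replicate 2, at 324 TPM. The spread from lowest to highest was thus 4.36-fold in replicate 1 and 5.28-fold in replicate 2. The top place and the spread of replicate 1 depend on the transcript length used for Tyms, which is taken up below. The median of the 9 was 250 TPM in replicate 1 and 216 TPM in replicate 2, against 23.1 TPM and 27.2 TPM for the median detected gene of the same libraries. Together the 9 genes summed to 2230 TPM in replicate 1 and 1942 TPM in replicate 2, or 2086 ± 204 TPM (SD, n = 2).

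**Figure D1:**
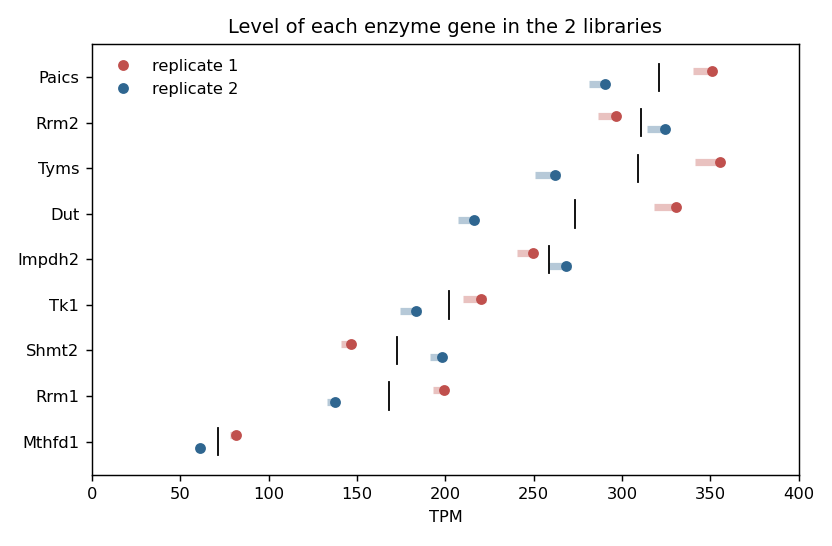
Level of each of the 9 enzyme genes on a linear TPM axis, with replicate 1 above replicate 2; points are deposited TPM, pale bars the deposited credibility interval and the black tick the mean. Mthfd1 lies below all others in both libraries, and the interval of replicate 1 does not overlap that of replicate 2 for any gene.

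Ordered by mean TPM as deposited, the genes ran Paics, Rrm2, Tyms, Dut, Impdh2, Tk1, Shmt2, Rrm1 and Mthfd1. Of the 8 neighbouring pairs in this order, 2 had ranges over the libraries that did not overlap, Impdh2 above Tk1 and Rrm1 above Mthfd1. Ranges can overlap while the order within each library holds, as for Tyms over Dut, Paics over Dut and Tk1 over Rrm1. Among the top 5, Paics and Rrm2 were both above Impdh2 in both libraries, and the other pairs overlapped, as did Tk1, Shmt2 and Rrm1. Of all 36 pairs of members, 24 had ranges that did not overlap. Across the 9 genes the log2 TPM of replicate 1 and replicate 2 had a Pearson r of 0.88 and the TPM a Spearman rho of 0.73; the 9 points share 2 libraries and their depth, and genes are not independent replicates. With 2 libraries a gene's pattern is 1 ratio, so no other gene was ranked by likeness to these.

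Ribonucleotide reductase is built from the large catalytic subunit, Rrm1, and the small subunit, Rrm2, which carries the radical used in catalysis. Rrm1 (ENSMUSG00000030978.9, chromosome 7, 102441695 to 102469771, plus strand, mm10) had 22929 reads in replicate 1 and 15762 reads in replicate 2. Its level was 199 TPM in replicate 1 and 138 TPM in replicate 2, or 168 ± 43.4 TPM (SD, n = 2). Rrm2 (ENSMUSG00000020649.7, chromosome 12, 24708241 to 24714146, plus strand) had 17088 reads in replicate 1 and 19737 reads in replicate 2. At 296 TPM in replicate 1 and 324 TPM in replicate 2, its mean was 310 ± 19.7 TPM (SD, n = 2). Rrm1 was thus higher in replicate 1 and Rrm2 in replicate 2, the direction of Rrm2 turning when the spike-ins set the scale. The ratio of Rrm2 to Rrm1 was 1.49 in replicate 1 and 2.36 in replicate 2, so the small subunit had the higher TPM in both libraries, though the size of the excess differed. Rrm2b, the other small subunit, which p53 induces in many cells, was near 0, with 1 read (0.02 TPM) in replicate 1 and 42 reads (0.85 TPM) in replicate 2.

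The windows upstream of both subunit genes are shown because the 2 subunits form 1 enzyme. Each runs from 250 bases before to 50 bases after the start of the gene in RefSeq (GRCm38.p6, which is mm10), 5′ to 3′ on the strand of the gene. The windows are chr7:102441445-102441744 (plus strand) for Rrm1 and chr12:24708004-24708303 (plus strand) for Rrm2. Capitals mark matches, on either strand, to CCAAT, to the GC box GGGCGG and to an E2F core, TTNNCGC, in which each N is C or G; E2F factors drive many S-phase genes.
Rrm1: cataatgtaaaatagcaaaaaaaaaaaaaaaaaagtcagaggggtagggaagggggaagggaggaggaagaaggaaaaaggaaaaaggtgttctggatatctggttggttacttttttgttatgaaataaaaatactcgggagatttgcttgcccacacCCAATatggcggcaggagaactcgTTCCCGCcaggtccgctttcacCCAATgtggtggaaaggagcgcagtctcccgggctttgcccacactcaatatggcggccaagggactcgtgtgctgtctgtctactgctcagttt
Rrm2: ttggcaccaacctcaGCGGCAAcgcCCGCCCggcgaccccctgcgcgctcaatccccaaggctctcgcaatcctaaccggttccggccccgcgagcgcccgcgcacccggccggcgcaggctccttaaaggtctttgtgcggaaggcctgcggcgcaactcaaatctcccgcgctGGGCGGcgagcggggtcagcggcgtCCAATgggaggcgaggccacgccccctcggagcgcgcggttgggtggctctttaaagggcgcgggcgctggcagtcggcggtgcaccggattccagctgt
The Rrm1 window, with 47% G and C, held 2 CCAAT matches and 1 E2F core 67 bases before the start and no GC box. The Rrm2 window, with 71.3% G and C, held 1 CCAAT match 50 bases before the start, 2 GC boxes and 1 E2F core, on the opposite strand. Across the windows of the 9 genes, 4 held an E2F core (Rrm1, Rrm2, Impdh2 and Mthfd1), 5 held CCAAT and 7 held a GC box. Among all 32851 RefSeq windows of this length the shares were 9.57%, 37.4% and 35.7%, in that order. These windows were not matched to the 9 genes in gene class, level or share of G and C, so no enrichment is read from them. In Impdh2 a CCAAT match and the E2F core overlap. A match is only a run of letters, and binding was not measured here.

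Tyms encodes thymidylate synthase (ENSMUSG00000025747.8, chromosome 5, 30058202 to 30073617, minus strand). It had 10085 reads in replicate 1 and 6798 reads in replicate 2. In TPM it stood at 356 in replicate 1 and 262 in replicate 2, or 309 ± 66 TPM (SD, n = 2), higher in replicate 1. This level depends on the transcript length used, which is taken up with the transcripts.

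Dut encodes dUTPase, which turns dUTP into the dUMP that Tyms uses and keeps uracil out of DNA (ENSMUSG00000027203.11, chromosome 2, 125247190 to 125258608, plus strand). Its reads were 10422 in replicate 1 and 6250 in replicate 2. The level was 330 TPM in replicate 1 and 216 TPM in replicate 2, with a mean of 273 ± 80.7 TPM (SD, n = 2). This was the largest difference among the 9 genes, with a TPM ratio of replicate 1 to replicate 2 of 1.53. Dut and Tyms differed in the same direction, and the ratio of Dut to Tyms stayed at 0.929 in replicate 1 and 0.825 in replicate 2. This ratio, too, depends on the transcript length used for Tyms.

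Tk1, the cytosolic thymidine kinase of dividing cells, salvages thymidine (ENSMUSG00000025574.9, chromosome 11, 117815526 to 117826092, minus strand). It had 6848 estimated reads in replicate 1 and 6303 in replicate 2. With 220 TPM in replicate 1 and 183 TPM in replicate 2, the mean was 202 ± 26.2 TPM (SD, n = 2), higher in replicate 1 at the level of the gene, though not by its coding transcript alone. Tk2, the mitochondrial thymidine kinase, was near 0, with 6 reads in replicate 1 and 0 in replicate 2. Dck, the deoxycytidine kinase, was lower than Tk1, at 43.7 TPM in replicate 1 and 15 TPM in replicate 2.

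The upstream window of Tyms (chr5:30073576-30073875, minus strand, GRCm38.p6) is shown to set it beside those of ribonucleotide reductase. It held 1 GC box, 54 bases before the start, and neither CCAAT nor the E2F core, and the Tk1 and Dut windows likewise held 1 GC box alone. The Dut window (chr2:125247265-125247564) is set on the RefSeq start and begins downstream of 125247190, the start of Dut-202, so it does not cover the region before the leading Dut transcript.
Tyms: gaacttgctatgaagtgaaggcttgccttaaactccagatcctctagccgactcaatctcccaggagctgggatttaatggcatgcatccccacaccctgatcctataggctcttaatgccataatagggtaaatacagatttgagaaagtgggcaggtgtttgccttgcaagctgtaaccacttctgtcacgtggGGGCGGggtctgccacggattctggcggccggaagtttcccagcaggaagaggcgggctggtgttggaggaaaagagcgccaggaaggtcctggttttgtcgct

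Among the 16 genes of the wider list for thymidylate and dNTP supply, 12 were detected in both libraries and 2, Dctd and Cda, in replicate 1 alone. Rrm2b and Tk2 were detected in neither. Nme1, a nucleoside diphosphate kinase, stood highest of the list at 388 TPM in replicate 1 and 331 TPM in replicate 2. Dtymk, which phosphorylates dTMP on the way to dTTP, had 187 TPM in replicate 1 and 258 TPM in replicate 2. Of the 13 genes with a mean of 10 TPM or more, 3 lay 2-fold or more apart, all higher in replicate 1 (Dctd, Dck and Samhd1). Over all genes with such a mean the share was 51.1%, a base not matched to the levels of the list. The share was 64.9% at 10 to 50 TPM and 15.3% at 200 to 500 TPM. Dctd, the dCMP deaminase, had 23.2 TPM in replicate 1 and was listed at 0 in replicate 2. Samhd1, which breaks dNTPs down, had 112 TPM in replicate 1 and 53.9 TPM in replicate 2.

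Paics encodes a protein with 2 activities in the middle of de novo purine synthesis (ENSMUSG00000029247.13, chromosome 5, 76951307 to 76967509, plus strand). It had 21011 estimated reads in replicate 1 and 18331 in replicate 2. The level was 351 TPM in replicate 1 and 290 TPM in replicate 2, or 321 ± 43 TPM (SD, n = 2), the highest mean of the 9. Its neighbour Ppat, which encodes the amidotransferase that opens the same pathway, lies head to head with it, and the annotated ends of the pair overlap by 272 bases on opposite strands. Ppat had 106 TPM in replicate 1 and 68.3 TPM in replicate 2, so both genes were higher in replicate 1. The ratio of Paics to Ppat was 3.31 in replicate 1 and 4.25 in replicate 2. Whether reads were counted by strand is not given in the sources used here, so reads from the overlap could not be assigned with certainty.

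The upstream window of Paics (chr5:76951052-76951351, plus strand, GRCm38.p6) is shown because it lies within the region where the pair meets. It falls inside the annotated span of Ppat, whose RefSeq start lies 276 bases downstream of that of Paics, and holds 2 GC boxes, 1 of them at the start itself, and 1 CCAAT match.
Paics: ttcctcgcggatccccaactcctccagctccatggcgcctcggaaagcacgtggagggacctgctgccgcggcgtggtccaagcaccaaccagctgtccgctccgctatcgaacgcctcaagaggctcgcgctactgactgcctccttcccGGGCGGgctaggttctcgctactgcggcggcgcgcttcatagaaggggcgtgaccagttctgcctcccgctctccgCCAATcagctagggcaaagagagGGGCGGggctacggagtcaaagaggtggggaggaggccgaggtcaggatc

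Impdh2 encodes the IMP dehydrogenase of dividing cells, which sends IMP towards guanine nucleotides (ENSMUSG00000062867.9, chromosome 9, 108560286 to 108565584, plus strand). Its estimated reads were 12708 in replicate 1 and 13026 in replicate 2. The level was 250 TPM in replicate 1 and 268 TPM in replicate 2, or 259 ± 13.3 TPM (SD, n = 2), the smallest difference of the 9 genes. Impdh1, its sister enzyme, was detected in replicate 1, with 35.4 TPM and 2313 reads, while replicate 2 had 0 reads. A processed pseudogene, Impdh2-ps, took 396 estimated reads in replicate 1 and 518 in replicate 2 (9.26 and 12.2 TPM in the same libraries). Reads of a gene and of its near copy can be exchanged by the estimate, so the Impdh2 values are uncertain to a degree that was not measured.

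In the list of de novo purine synthesis 11 of 15 genes were detected in both libraries. Prps1, Impdh1 and Adss were detected in replicate 1 alone, each with no read in replicate 2, and Adssl1 in replicate 2 alone. Of 13 genes with a mean of 10 TPM or more, 5 lay 2-fold or more apart, all higher in replicate 1 (Prps1, Gart, Pfas, Impdh1 and Gmpr2). That is 38.5% of the list, against 51.1% of all genes of that level, of which 25.8% were higher in replicate 1 and 25.2% in replicate 2. Gart, which carries out 3 steps of the pathway in mammals, had 93.3 TPM in replicate 1 and 39.4 TPM in replicate 2. Adsl, the adenylosuccinate lyase, had 127 TPM in replicate 1 and 248 TPM in replicate 2. Paics and Impdh2 were the highest genes of this list by mean TPM.

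Shmt2, the mitochondrial serine hydroxymethyltransferase, takes a carbon from serine and loads it onto folate (ENSMUSG00000025403.4, chromosome 10, 127517123 to 127522444, minus strand). It had 9547 reads in replicate 1 and 12852 reads in replicate 2. Its level was 146 TPM in replicate 1 and 198 TPM in replicate 2, or 172 ± 36.7 TPM (SD, n = 2), higher in replicate 2. This difference nearly vanished when the spike-ins set the scale. Shmt1, the cytosolic form, had 29.6 TPM in replicate 1 and 143 TPM in replicate 2. The mitochondrial form had the higher level in both libraries, by 4.95-fold in replicate 1 and 1.38-fold in replicate 2.

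Mthfd1, the cytosolic enzyme with 3 activities that interconverts one-carbon folates, was the lowest of the 9 (ENSMUSG00000021048.6, chromosome 12, 76255298 to 76319803, plus strand). Its reads were 7772 in replicate 1 and 5816 in replicate 2. It had 81.5 TPM in replicate 1 and 61.4 TPM in replicate 2, or 71.5 ± 14.2 TPM (SD, n = 2). Mthfd2, a mitochondrial relative, had 213 TPM in replicate 1 and 62.3 TPM in replicate 2, and Mthfd1l, the mitochondrial formate-producing relative, 44.4 TPM and 14.3 TPM in the same libraries. Mthfd1 was thus below Mthfd2 in replicate 1, at a ratio of 0.383, and level with it in replicate 2, at 0.985. The order of Shmt2 and Mthfd2 turned between libraries, with a ratio of Shmt2 to Mthfd2 of 0.688 in replicate 1 and 3.18 in replicate 2.

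The folate list was detected in part: 10 of its 20 genes were detected in both libraries, 2 in replicate 1 alone, 1 in replicate 2 alone and 7 in neither. Folr1 (a folate receptor), Ggh, Slc25a32 (the mitochondrial folate carrier) and Aldh1l1 had no read in either library. A count of 0 allows up to 3 reads, or 0.0901 CPM (counts scaled to the library total) in replicate 1 and 0.092 in replicate 2, for counting error alone. The reduced folate carrier Slc19a1 was detected in both, at 42.1 TPM in replicate 1 and 62.3 TPM in replicate 2. Mtr, the methionine synthase, had 0 reads in replicate 1 and 93 reads (0.72 TPM) in replicate 2. Of 11 folate genes with a mean of 10 TPM or more, 5 lay 2-fold or more apart, 2 higher in replicate 1 and 3 in replicate 2. The 5 were 45.5%, against 51.1% of all genes with such a mean, a base not matched to the levels of the list.

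Genes that feed the same pools varied in level. All 3 enzymes that make serine were detected: Phgdh at 393 TPM in replicate 1 and 436 TPM in replicate 2, Psat1 at 293 and 92.6 TPM, and Psph at 118 and 92.2 TPM in the same libraries. Gldc, of the glycine cleavage system, had no read. Of the 6 genes of pyrimidine synthesis, 5 were detected in both libraries and Ctps2 in replicate 1 alone, and Cad, which begins that pathway, was low at 10.6 TPM in replicate 1 and 13.4 TPM in replicate 2. In the salvage list, Hprt had 367 TPM in replicate 1 and 388 TPM in replicate 2 and Aprt 349 and 219 TPM, while Ada, Xdh and Gda had no read. That list had 4 of 11 genes in both libraries, and Pnp was not analysed here.

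**Figure D2:**
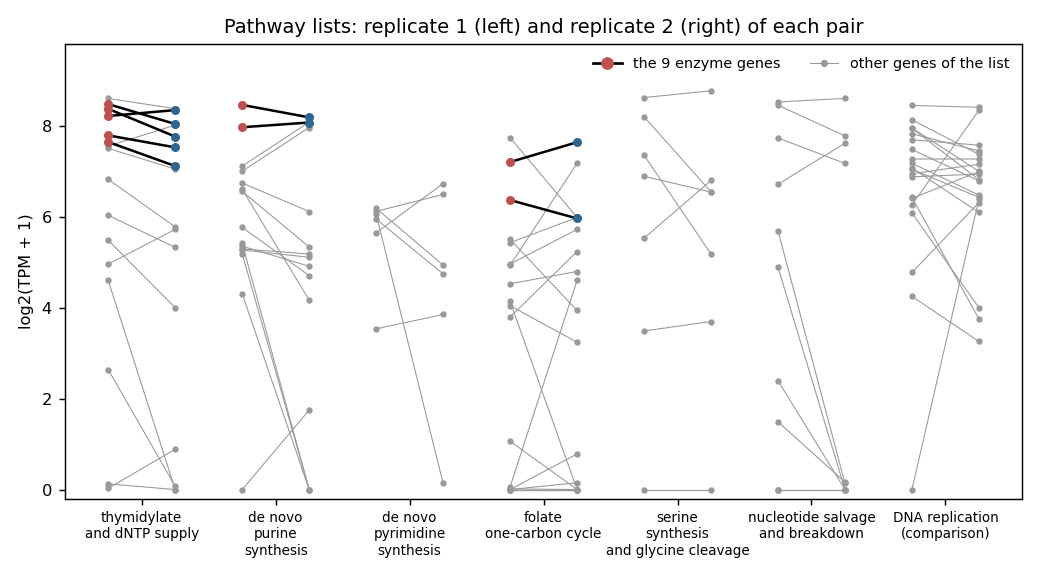
Level of every gene of the pathway lists, log2(TPM + 1), with replicate 1 left and replicate 2 right of each pair joined by a line; the 9 enzyme genes have black lines and coloured points. The 9 lie in the upper part of their lists with short lines, while 12 other list genes were detected in replicate 1 alone and 2 in replicate 2 alone.

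Over all 6 lists, which hold 75 different genes of which 74 were matched, 47 were detected in both libraries. Leaving out the 9 described here, the figures were 38 of 65 in both libraries, 12 in replicate 1 alone, 2 in replicate 2 alone and 13 in neither. Over all Ensembl genes, 5.63% were detected in replicate 1 alone and 4.29% in replicate 2 alone. Most Ensembl genes were detected in neither, so these shares are not on the same base as the lists. By count, 6481 Ensembl genes were detected in both libraries, 2441 in replicate 1 alone and 1861 in replicate 2 alone. In the DNA replication list, set beside them for comparison, 19 of 20 genes were detected in both and the exception was Pole. Its 3 highest genes were Pcna, at 349 TPM in replicate 1 and 339 TPM in replicate 2, Rnaseh2a, at 280 and 165 TPM, and Mcm7, at 226 and 174 TPM. The median of the mean levels was 259 TPM over the 9 enzyme genes and 126 TPM over that list. It was 119 TPM over the whole thymidylate and dNTP list and 38 TPM over the 74 matched genes of the 6 lists. The 9 were chosen with earlier results of these data known, so their higher median is a description of that choice.

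The difference between libraries was taken as the log2 ratio of replicate 1 over replicate 2 of TPM plus a pseudocount of 1, centred on the median gene with a mean of 10 TPM or more. None of the 9 genes was 2-fold apart, but with centring on the spike-ins Dut was, at 1.03 on the log2 scale. Of all 6801 genes at a mean of 10 TPM or more, 51.1% were, and of the 2337 genes with a mean TPM of 50 to 500, the range that holds the members, 33.3% were. In the range of 200 to 500 TPM, where 6 of the 9 lie, the share was 15.3% of 432 genes. Against that share the count was 0 of 6. Of the other list genes 22 of 45 with a mean of 10 TPM or more were 2-fold apart, or 48.9%, with 17 higher in replicate 1 and 5 in replicate 2. In the DNA replication list 8 of 20 were.

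The member ratios ran, on this log2 scale, from -0.41 for Shmt2 to 0.63 for Dut. Rrm1 stood at 0.55, Tyms at 0.46, Mthfd1 at 0.43, Paics at 0.30 and Tk1 at 0.29. Impdh2 was at -0.08 and Rrm2 at -0.10, and with centring on the spike-ins these 2 turned positive, at 0.31 and 0.29. With the same centring Shmt2 was at -0.02. Thus 6 of the 9 were higher in replicate 1, Tk1 among them by its gene level but not by its coding transcript alone, and among all genes with a mean TPM of 50 to 500 the share was 52.1%. The median over the 9 was 0.30, against 0.06 over the genes of that TPM range. Without regard to sign, the median difference of the 9 was 0.41, against 0.66 over the genes of that TPM range and 1.03 over all genes with a mean of 10 TPM or more. At 200 to 500 TPM, where 6 of the 9 lie, it was 0.29 for those 6, against 0.45 over all genes. Centring on the spike-ins in place of the genes moved all ratios up by 0.39, and the member median was then 0.69.

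**Figure D3:**
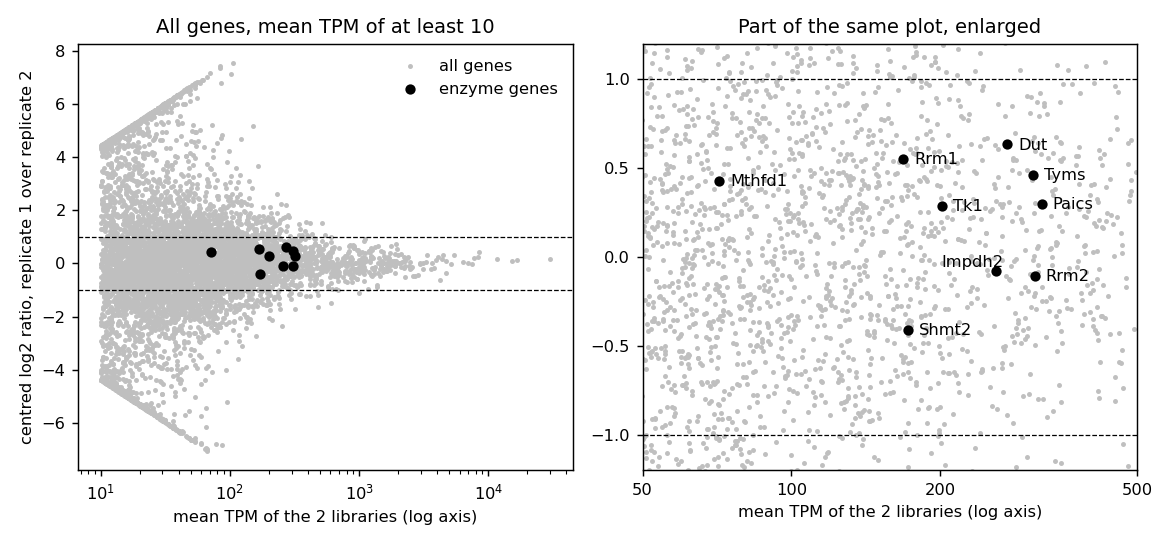
Centred log2 ratio of replicate 1 over replicate 2 against mean TPM on a log axis, for 6801 genes in grey and the 9 enzyme genes in black, with the range of 50 to 500 TPM enlarged at right; dashed lines mark a 2-fold difference. All 9 lie between the lines, from Shmt2 at -0.41 to Dut at 0.63.

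Uncertainty of the estimate within a library was smaller than the difference between libraries for each gene. The deposited credibility intervals were between 2.58% and 6.79% of the posterior mean wide, the narrowest for Rrm1 and the widest for Tk1. For all 9 genes the interval of replicate 1 did not overlap that of replicate 2. The same held for 91.3% of genes with a mean of 10 TPM or more, so this sets the members apart from few genes, and the intervals leave out the variation between libraries. In 3 genes of each library the deposited TPM lay above its own upper bound, since the intervals belong to the posterior mean, which was lower.

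Transcripts were compared next, since TPM divides reads by the length of the transcripts they were assigned to. The tables held 38 transcripts of the 9 genes. Rrm1, Shmt2 and Mthfd1 had 1 each, and the other 6 genes had between 3 and 8. In all 6 the transcript with the highest TPM was the same in both libraries, and among genes with a mean of 10 TPM or more and 2 or more transcripts this held for 62.4%.

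For Tyms the leading transcript was Tyms-205, which GENCODE M21 classes as a target of nonsense-mediated decay. The tables use release M4, and M21 gives Tyms-205 618 bases, against 797 bases in the tables, so the class belongs to a different model of this transcript. It took 49.6% of the TPM of the gene in replicate 1 and 48.6% in replicate 2. Tyms-202, a retained-intron transcript, took 35.7% in replicate 1 and 41.7% in replicate 2. The libraries are labelled total RNA-seq, and whether reads given to retained-intron transcripts came from finished mRNA was not tested. The full coding transcript in the tables, Tyms-201, took 5.16% in replicate 1 and 5.05% in replicate 2. A leading transcript outside the protein-coding class in both libraries was found in 8.75% of protein-coding genes with a mean of 10 TPM or more and 2 or more transcripts. Tyms-201 is annotated with 3163 bases, while Tyms-205 has 797 bases and Tyms-202 has 816 bases in the tables. The mouse Tyms mRNA is known to be polyadenylated at or near the stop codon. The stretch of Tyms-201 that ends at the stop codon is 994 bases long.

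This bears on the level given for Tyms. The deposited effective length of the gene was 960 bases in replicate 1 and 883 bases in replicate 2. With the same reads counted over the whole of Tyms-201, the level became 111 TPM in replicate 1 and 75.5 TPM in replicate 2, a mean of 93.4 ± 25.3 TPM (SD, n = 2), and Tyms moved to the eighth place of the 9. Counted over the stretch to the stop codon, it became 381 TPM in replicate 1 and 259 TPM in replicate 2, close to the deposited values. Both of these were chosen after the data were seen. Each used 1 length for both libraries, so the difference between libraries had to keep the direction of the reads.

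The other genes were less dependent on this choice. Dut was coding in full: Dut-202 took 84.3% in replicate 1 and 93.3% in replicate 2, and Dut-201, whose start lies 292 bases downstream, took the remaining 15.7% and 6.73%. Paics was shared by Paics-203, with 51% in replicate 1 and 68.3% in replicate 2, and Paics-202, with 45.4% and 21.7%, both coding. Tk1-201, the coding transcript, took 59.6% in replicate 1 and 76.2% in replicate 2, and a retained-intron transcript, Tk1-203, the remaining 40.3% and 23.6%. Counting only Tk1-201, the level was 131 TPM in replicate 1 and 140 TPM in replicate 2, so Tk1 was no longer higher in replicate 1. Rrm2-201 took 90.1% in replicate 1 and 98.4% in replicate 2, and the retained-intron Rrm2-202 9.65% and 1.35%. Impdh2-201 took 96.2% in replicate 1 and 88.3% in replicate 2.

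**Figure D4:**
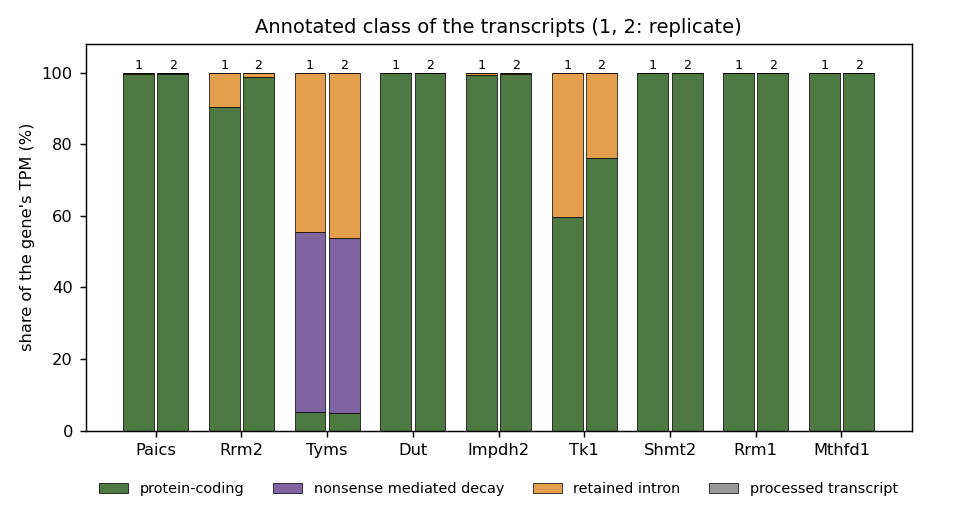
Share of the TPM of each gene, in percent, by the annotated class of its transcripts, with replicate 1 left of replicate 2. Tyms alone among the 9 has most of its TPM outside the protein-coding class, with coding shares of 5.16% in replicate 1 and 5.05% in replicate 2, and Tk1 is next with 59.6% and 76.2%.

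**Figure D5:**
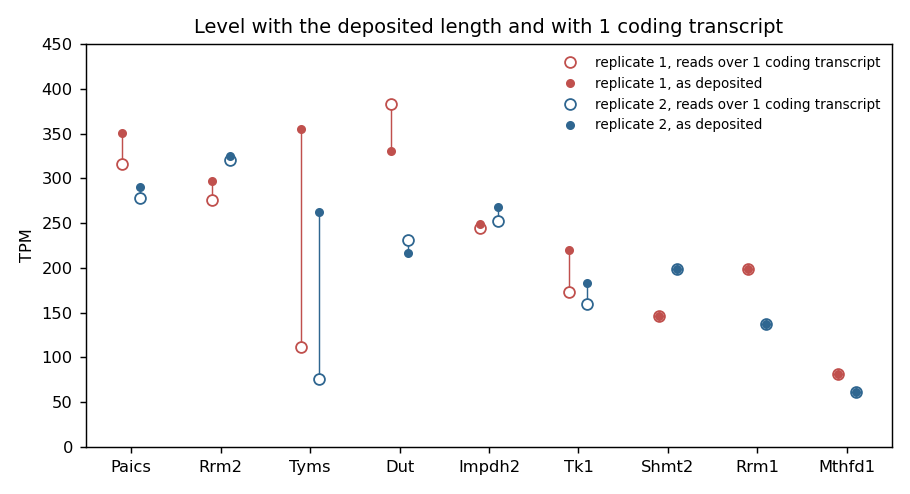
TPM of each gene as deposited (filled points) and with all of its reads counted over its leading coding transcript (open points), with replicate 1 left of replicate 2. Tyms drops to 111 TPM in replicate 1 and 75.5 TPM in replicate 2, while the genes with 1 transcript do not move.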

How the data were processed

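RNA of embryonic day 11.5 liver was measured in 2 libraries of 1 group. Per the file headers, the authors deposited for each gene and transcript an expected count (estimated reads), TPM, FPKM, a posterior mean TPM with credibility bounds (on the scale of the signal, as deposited) and effective length, and for each transcript the percent of its gene's abundance. Per the labels the assembly is mm10; the annotation is GENCODE M4. No source used here names the aligner or the quantifier.

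Genes were matched by identifier to GENCODE M21, a later release, in which 34 of the 38 member transcripts have the length of the tables, and promoters came from RefSeq. Total expected counts were 33289699 in replicate 1 and 32607453 in replicate 2. Over 11205 genes the chi-square per degree of freedom between the libraries was 814, so they were not the same library deposited again. Intervals and floors cover counting error only. A gene was detected at a TPM of at least 1. Ratios used log2(TPM + 1), which understates the differences of low genes. With 1 group there was no test and no p-value. The ratio calculation was tested on simulated counts that varied by counting error alone. This checks the calculation and not how the 2-fold rule behaves on libraries as far apart as these. Python 3.11.15, numpy 2.4.6 and pandas 2.3.3 were used. The text names the 9 genes, any gene of the pathway lists, the 3 highest of the comparison list and the 2 highest markers of a cell type; Nppa, Pdgfrb, Hnf4a and Pole were named after their values were seen. The values of 1 gene of the lists are not reported here. The 9 genes and the lists were chosen with earlier results of these data known.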

Additional observations from a re-analysis of the deposited data

Results flagged for a closer look

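Reads were also assigned to a row outside the 9 genes that carries the name of one of them. Impdh2-ps, annotated as a processed pseudogene on chromosome 8 (100030558 to 100032102, mm10), had 396 estimated reads in replicate 1 and 518 in replicate 2, above the 3 reads that a count of 0 allows. The counts are fractional in both libraries, as are those of Impdh2 itself.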

How the results depend on the processing

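The settings were changed 1 at a time. Leaving globins and spike-ins out of the scaling raised the summed TPM of the 9 genes to 2485, and leaving out 1 library gave 1942 to 2230. Centring on 38 spike-ins raised the median log2 ratio to 0.69 and put 1 gene, Dut, past 2-fold; at a fold of 1.5, 1 gene, again Dut, passed. The ratio of Rrm2 to Rrm1 ranged from 1.49 to 2.36 when either library was left out. Of the 64 alternative member levels 54 moved by less than 1 SD. Leaving out 1 of 2 libraries always moves a mean by less than 1 SD. A change of transcript cannot move a gene with 1 transcript, so that count is in part fixed in advance. A member ratio is 1 value without an SD, so this yardstick does not apply to the ratios. The sign of 2 member ratios changed with centring on the spike-ins, and no other setting changed any. Other scalings, and leaving out a library, moved no member level by more than 1.26-fold; counting reads over 1 coding transcript, chosen after seeing the data, moved Tyms to 93.4 TPM. By posterior mean TPM or by reads, 6 of 6 leading transcripts still agreed between libraries. No paired analysis was possible because the study has 1 group. With 2 libraries, each from 1 cell-equivalent, the SD is itself poorly known, and how far loss of molecules in library making sets the zeros was not tested.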
